A study of Homo sapiens with 4 samples.

Results

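The genes described here are 10 members of the BCL2 family, chosen by name for their role in mitochondrial apoptosis. Their values in these libraries were not the criterion, but earlier results of these data were known when they were chosen. They are the pro-survival genes *BCL2L1* and *MCL1*, the effectors *BAX* and *BAK1*, and the BH3-only genes *BID*, *BAD*, *BBC3*, *PMAIP1*, *BCL2L11* and *BIK*. All 10 were found among the 40205 genes listed in each library. RNA was sequenced from human lung carcinoma cells that received a negative control siRNA (NC 1 and NC 2) or an siRNA against circZFR (si-circZFR 1 and si-circZFR 2), a circular RNA made from exons of the *ZFR* gene, for 24 h. The question was how mRNA levels change when circZFR is silenced. The labels name no other treatment or allele for either group. The sample labels name the line H1299, whereas the study design and the article name A549. Nothing in the labels says that the 2 libraries of a group came from separate cultures, so p-values here rest on the spread between these libraries, which may be technical. The test used, limma, also draws the spread of each gene towards that of other genes of like level.

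Proteins of the BCL2 family decide whether the outer mitochondrial membrane stays intact. Effectors open pores in it and release cytochrome c, pro-survival members bind and hold the effectors and the BH3-only proteins, and BH3-only proteins free or activate the effectors. Many members are regulated after transcription, by protein stability, phosphorylation, cleavage or splicing, so an mRNA level alone does not show protein activity.

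The libraries held 11040050 to 12816868 reads, and 98.4% to 98.6% of each lay on listed genes. *ZFR*, the locus of the circle, had 1437 reads in NC 1, 1740 in NC 2, 284 in si-circZFR 1 and 267 in si-circZFR 2. Its log2FC was -2.34 (SE 0.18, FDR = 0.0481 by limma), but reads of the circle and of the linear transcript are not separated in these values. By RT-PCR in A549 cells, the article saw no detectable change of *ZFR* with its siRNA. Here the mean of the whole gene in si-circZFR was 0.168 of that in NC. Whether the linear transcript fell was not tested. *CDKN2A*, which A549 cells lack, was listed at 0 in all 4 libraries, and *AKR1B10* had an RPKM (read number divided by gene length and library total) of 1270 to 1750. *CDKN1A*, *MDM2* and *AKR1C1*, also expected in A549, had an RPKM of 99.7 to 130, 4.6 to 7.05 and 505 to 620. Of these markers, only *CDKN2A* was chosen to separate the 2 lines, and its value went with A549 and against the H1299 label. The others were chosen only as present in A549. The epithelial keratins *KRT8* and *KRT18* had an RPKM of 721 or more in every library. Of the markers of other cell types, *PTPRC* (leukocytes) and *DCN* (fibroblasts) were listed at 0 in all 4 libraries and *PECAM1* (endothelium) at 0.0265 or less. *EPCAM*, another epithelial marker, had an RPKM of 0.389 and 0.363 in NC and 1.86 and 2.95 in si-circZFR. These rested on 4 reads in NC 1, 4 in NC 2, 18 in si-circZFR 1 and 28 in si-circZFR 2. It was tested only because both si-circZFR values reached an RPKM of 1, so its direction was fixed by that rule. *CDH1*, which encodes E-cadherin, had an RPKM of 11.2 and 7.7 in NC and 22.1 and 23.6 in si-circZFR (FDR = 0.0825 by limma). What part these shifts have in the values below was not tested. In bulk RNA a smaller number of expressing cells and less RNA per cell cannot be told apart.

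No member passed the thresholds of FDR under 0.05 and |log2FC| over 1 after silencing of circZFR, where 0.0576% of the 13885 genes tested did. Limma was fitted to log2(scaled RPKM + 1) of all genes tested, and the FDR is its p adjusted by Benjamini-Hochberg over all of them. Scaled RPKM is the deposited RPKM divided by a factor for each library. Testing required an RPKM of 1 or more in 2 or more libraries, and all 10 members reached that level in all 4 libraries. Without adjustment, 3 of the 10 members had p under 0.05 by limma (*BAK1*, *BAD* and *BBC3*), against 21.4% of all genes. Limma-voom on reads recovered from the RPKM values passed no member either, where 295 of 13885 genes passed. The same 3 members had p under 0.05 by limma-voom, as did 3238 of the 13885 genes. The 2 libraries of each group lay apart for 7 of the 10 members, against 55.9% of all genes. Of these 7, 3 were higher and 4 lower in si-circZFR, against 27% and 28.9% of all genes. Counts so near the background are no result about the members. The median log2FC was -0.09 over the members and -0.01 over all genes. With 2 libraries against 2, an exact permutation test of a single gene cannot give a two-sided p under 0.333. The 95% confidence interval of the log2FC lay inside -1 to 1 for 7 members, and those of *BAK1*, *BAD* and *BIK* reached beyond it.

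The family was unevenly expressed. On the scaled RPKM scale, which is relative to gene length, the mean level in NC was highest for *BAX* at 138, followed by *BCL2L1* at 105 and *MCL1* at 61.2. *BAD*, *BID* and *BAK1* followed at 22.8, 18.6 and 16.6. *BBC3* (5.83), *PMAIP1* (4.19), *BCL2L11* (2.75) and *BIK* (1.55) were lowest. *BAX*, *BCL2L1* and *MCL1* made up 79.1% to 84.4% of the summed RPKM of the 10 members in each library, and the 6 BH3-only genes 12.9% to 16.4%. In NC, *BAX* lay above *BCL2L1* in both libraries, and in both si-circZFR libraries *BCL2L1* lay above *BAX*. *BID* could not be ranked against *BAD* or *BAK1*, since its range overlapped theirs in the NC libraries. *BAD* lay above *BAK1* within each of the 4 libraries. *BCL2L1* lay above *MCL1* and *BBC3* above *PMAIP1* without overlap over the 4 libraries.

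**Figure D1:**
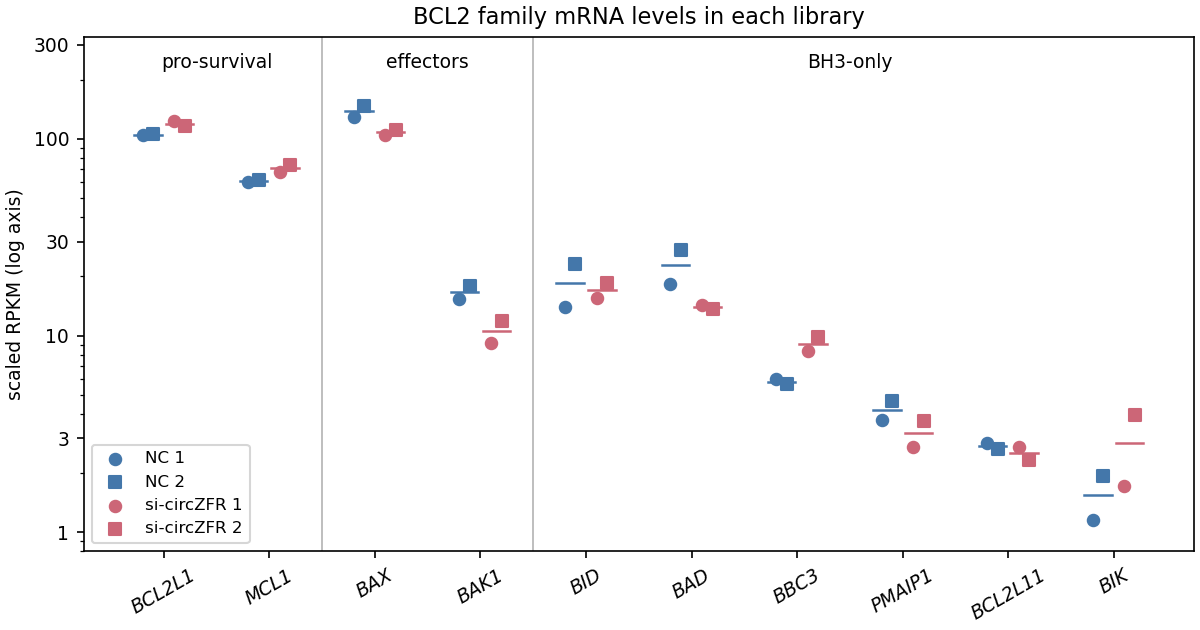
Scaled RPKM (log axis) of the 10 BCL2 family members in each of the 4 libraries, grouped by role. Circles are replicate 1, squares are replicate 2, blue is NC, red is si-circZFR, and short lines are group means. *BAX*, *BCL2L1* and *MCL1* lie above 60 in all libraries and the other members at 27.3 or below.

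To begin with the siRNA itself, its listed sense strand and the guide derived from it are shown because members could carry matches to its seed. The capitals mark bases 2 to 8 of the guide, counted from its 5′ end.
siRNA against circZFR, sense strand: ccaagcuggcccuuacguctt
guide strand without overhang: gACGUAAGggccagcuugg
The 3′UTR word that pairs with this seed, CTTACGT, occurred in 283 of 10445 tested genes with an annotated 3′UTR (2.71%). It was in the 3′UTR of none of the 10 members. Binding by partial pairing elsewhere was not searched.

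The pro-survival genes were slightly higher in si-circZFR, and neither passed. *BCL2L1* encodes BCL-xL and, by another splice site, the pro-apoptotic BCL-xS, and the gene-level values do not separate these forms. The gene spans chromosome 20 from 31664458 to 31722868 (minus strand, GRCh38 here and below) and shares 945 exonic bases with *ABALON* on the opposite strand. *BCL2L1* had 3181 reads in NC 1, 3070 in NC 2, 3629 in si-circZFR 1 and 3648 in si-circZFR 2. Scaled RPKM was 105 in NC 1, 106 in NC 2, 123 in si-circZFR 1 and 116 in si-circZFR 2. Both si-circZFR libraries lay above both NC libraries, and the groups were apart by little more than the spread within si-circZFR. NC had a mean of 105 ± 0.241 (SD, n = 2) and si-circZFR a mean of 119 ± 4.63 (SD, n = 2). The log2FC of 0.18 (95% confidence interval -0.27 to 0.62) did not pass (FDR = 0.596 by limma).

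*MCL1* encodes a short-lived pro-survival protein that binds the effector BAK and the BH3-only protein NOXA. The gene spans chromosome 1 from 150574558 to 150579610 (minus strand). Its scaled RPKM was 60.6 in NC 1, 61.8 in NC 2, 67.8 in si-circZFR 1 and 73.6 in si-circZFR 2. Both libraries with silencing were again higher, without overlap. The log2FC was 0.20 (95% confidence interval -0.21 to 0.62) and did not pass (FDR = 0.514 by limma). For both genes the value depended on the scaling. With library size alone the log2FC was 0.37 for *BCL2L1* and 0.39 for *MCL1*, in a setting that put the median of all genes at 0.15.

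Of the other pro-survival members, *BCL2A1* and *BCL2L2* were tested and neither passed. *BCL2L2*, which encodes BCL-w, had a scaled RPKM of 10.3 in NC 1, 6.93 in NC 2, 11.9 in si-circZFR 1 and 13.7 in si-circZFR 2 (log2FC 0.53, FDR = 0.236 by limma). *BCL2A1* averaged 10.4 ± 3.78 (SD, n = 2) for NC and 8.59 ± 0.302 (SD, n = 2) for si-circZFR (log2FC -0.21, FDR = 0.655 by limma). *BCL2* itself, the founding member, had a mean scaled RPKM of 0.133 in NC and 0.0971 in si-circZFR and was below the level for testing, as was *BCL2L10*.

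The effectors were lower in si-circZFR than in NC, and neither passed. *BAX* encodes a mostly cytosolic protein that moves to mitochondria and forms pores there. The gene spans chromosome 19 from 48954875 to 48961798 (plus strand). Its scaled RPKM was 129 in NC 1, 147 in NC 2, 105 in si-circZFR 1 and 111 in si-circZFR 2. The groups did not overlap. The controls averaged 138 ± 12.4 (SD, n = 2) and si-circZFR averaged 108 ± 4.31 (SD, n = 2), a ratio of 0.78. The log2FC of -0.35 (95% confidence interval -0.82 to 0.12) did not pass (FDR = 0.333 by limma). *BAX* has the shortest length in the RPKM values among the members, 908 bases, and after the values of each library were corrected for gene length and GC by a smooth fit, its log2FC was -0.16, as it was with library size alone.

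*BAK1* encodes the effector that resides in the mitochondrial membrane, where pro-survival proteins hold it. On chromosome 6 from 33572552 to 33580276 (minus strand), *BAK1* had 414 reads in NC 1, 467 in NC 2, 244 in si-circZFR 1 and 333 in si-circZFR 2. Scaled RPKM was 15.3 in NC 1, 17.9 in NC 2, 9.18 in si-circZFR 1 and 11.8 in si-circZFR 2. Both libraries with silencing lay below both controls. The log2FC was -0.62 (SE 0.19, 95% confidence interval -1.08 to -0.16) and did not pass (FDR = 0.158 by limma). *GGNBP1*, which shares 91 exonic bases with *BAK1* on the opposite strand, had at most 1 read in any library.
Reads of *BAK1* cannot be fully told from those of its pseudogene *BAK1P1*, which is listed too. *BAK1P1* had 134 reads in NC 1, 277 in NC 2, 174 in si-circZFR 1 and 309 in si-circZFR 2, and how reads that match both were assigned is not given in the sources used here. When the reads of *BAK1* and *BAK1P1* were summed, a step chosen after the values were seen, the scaled CPM (reads relative to the library total) was 46.4 in NC 1, 65.5 in NC 2, 36.1 in si-circZFR 1 and 52.3 in si-circZFR 2. The groups then overlapped, and the log2 difference was -0.34.

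The BH3-only genes did not move in one direction. Of the 6, *BBC3* was higher and *BAD* and *PMAIP1* were lower in si-circZFR without overlap, and *BID*, *BCL2L11* and *BIK* overlapped between the groups. Groups were thus apart for 50% of the 6, near the 55.9% of all genes tested, which is no result about these genes. None passed.

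*BBC3* encodes PUMA, which binds all pro-survival members. *BBC3*, at chromosome 19 from 47220824 to 47231199 (minus strand), had 131 reads in NC 1, 118 in NC 2, 178 in si-circZFR 1 and 223 in si-circZFR 2. Scaled RPKM was 6.02 in NC 1, 5.64 in NC 2, 8.35 in si-circZFR 1 and 9.85 in si-circZFR 2. Both libraries with silencing lay above both controls. The mean in si-circZFR was 1.56 times that in NC, and the log2FC was 0.56 (SE 0.16, 95% confidence interval 0.16 to 0.97), which did not pass (FDR = 0.15 by limma). *BBC3* has the highest GC content of the members (69.7%), and the 54 tested genes with a GC content at least as high had a median log2FC of 0.33. With the length and GC correction the log2FC of *BBC3* was 0.21 (FDR = 0.413 by limma).

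*BAD* encodes a BH3-only protein that binds BCL-xL and is held by 14-3-3 proteins when phosphorylated. *BAD* spans chromosome 11 from 64269830 to 64284665 (minus strand). Its scaled RPKM was 18.3 in NC 1, 27.3 in NC 2, 14.3 in si-circZFR 1 and 13.6 in si-circZFR 2. The groups did not overlap, but NC 2 lay farther from NC 1 than NC 1 from si-circZFR 1. Means were 22.8 ± 6.36 (SD, n = 2) for NC and 14.0 ± 0.544 (SD, n = 2) for si-circZFR. The log2FC was -0.65 (SE 0.22, 95% confidence interval -1.19 to -0.10) and did not pass (FDR = 0.183 by limma). It was -0.92 without NC 1 (FDR = 0.0346 by limma) and -0.37 without NC 2. *BAD* shares 314 exonic bases with *GPR137* on the opposite strand, and *GPR137* had a log2FC of 0.03.

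*PMAIP1* encodes NOXA, which binds the MCL-1 protein and promotes its degradation. *PMAIP1* spans chromosome 18 from 59899996 to 59904305 (plus strand). Scaled RPKM was 3.74 in NC 1, 4.64 in NC 2, 2.72 in si-circZFR 1 and 3.68 in si-circZFR 2. The groups were apart only by the small gap between NC 1 and si-circZFR 2, on 94 and 96 reads. The log2FC of -0.31 (95% confidence interval -0.80 to 0.18) did not pass (FDR = 0.407 by limma). It was -0.14 without si-circZFR 1, -0.19 without NC 2 and -0.47 without si-circZFR 2, and -0.16 with library size alone.

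*BID* encodes the protein that caspase-8 cleaves to pass death receptor signals to mitochondria. *BID* spans chromosome 22 from 17734138 to 17774469 (minus strand). Scaled RPKM was 14.0 in NC 1, 23.2 in NC 2, 15.6 in si-circZFR 1 and 18.5 in si-circZFR 2. Both si-circZFR values lay between those of the controls. The log2FC was -0.08 (95% confidence interval -0.72 to 0.57, FDR = 0.882 by limma) and turned to 0.27 without NC 2.

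*BCL2L11* encodes BIM, which binds all pro-survival members and can activate effectors directly. *BCL2L11* spans chromosome 2 from 111120914 to 111168444 (plus strand) and shares 727 exonic bases with MIR4435-2HG on the opposite strand. Scaled RPKM was 2.86 in NC 1, 2.64 in NC 2, 2.70 in si-circZFR 1 and 2.33 in si-circZFR 2. The groups overlapped and all 4 values lay close together, and the log2FC was -0.09 (95% confidence interval -0.52 to 0.34, FDR = 0.784 by limma). The protein's forms differ by splicing, which these values do not show.

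*BIK*, which encodes a BH3-only protein of the endoplasmic reticulum, rested on the fewest reads. *BIK*, at chromosome 22 from 43110750 to 43129712 (plus strand), had 13 reads in NC 1, 21 in NC 2, 19 in si-circZFR 1 and 46 in si-circZFR 2. The exact 95% Poisson intervals of these counts were 6.92 to 22.2, 13 to 32.1, 11.4 to 29.7 and 33.7 to 61.4, and they cover counting error only. On these counts, which are not scaled between libraries, only the interval of si-circZFR 2 lay apart from the others. Its lower bound was close to the upper bound of NC 2. The log2FC was 0.54 (95% confidence interval -0.28 to 1.36, FDR = 0.384 by limma), and it was 0.12 without si-circZFR 2. Since 1 is added to each value before the log, this scale understates changes of low genes such as *BIK*, whose mean scaled RPKM was 1.55 in NC and 2.83 in si-circZFR.

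**Figure D2:**
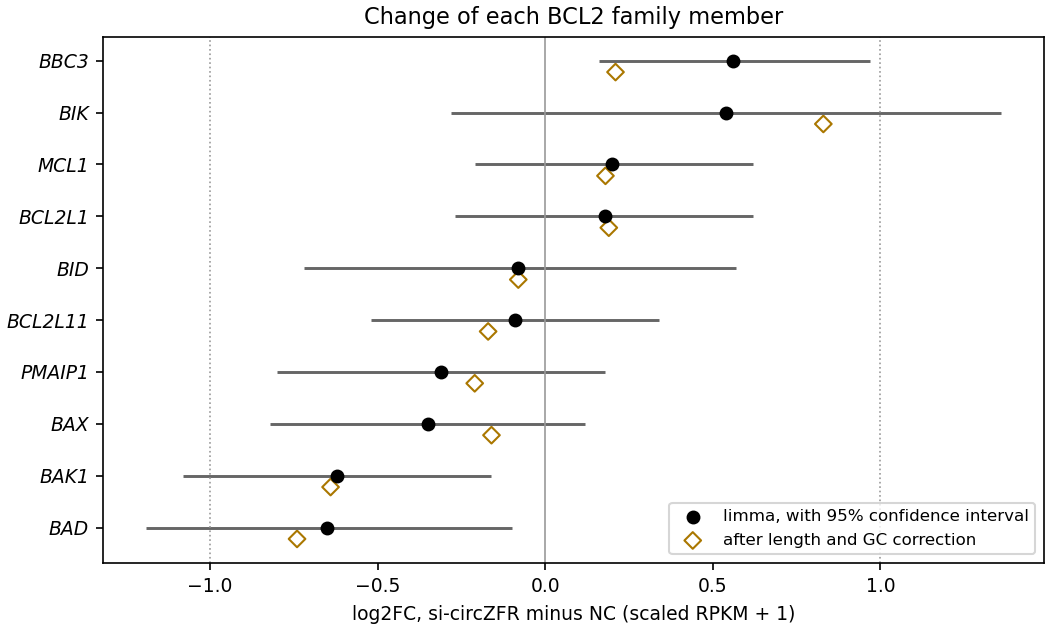
log2FC (si-circZFR minus NC, scaled RPKM + 1) of each member. Black points are the limma estimates with 95% confidence intervals from 2 libraries in each group, open diamonds are estimates after the length and GC correction, and dotted lines mark a log2FC of -1 and 1. The intervals of *BBC3*, *BAK1* and *BAD* exclude 0, and *BBC3* moves from 0.56 to 0.21 with the correction.

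Ratios between members were taken within each library, where the scaling between libraries cancels. *BAX* plus *BAK1*, relative to *BCL2L1* plus *MCL1*, was 0.872 in NC 1, 0.984 in NC 2, 0.598 in si-circZFR 1 and 0.646 in si-circZFR 2. All ratios are of RPKM and not of protein. This ratio of effectors to pro-survival genes was lower in both libraries with silencing, with means of 0.928 ± 0.0796 (SD, n = 2) and 0.622 ± 0.0342 (SD, n = 2). The log2 difference was -0.58, and after the length and GC correction it was -0.40. The ratio of *PMAIP1* to *MCL1*, which encode direct binding partners, was 0.0617 in NC 1, 0.075 in NC 2, 0.0402 in si-circZFR 1 and 0.0499 in si-circZFR 2. It was also lower without overlap, with a log2 difference of -0.60, and of -0.46 after the length and GC correction. The summed BH3-only genes, relative to *BCL2L1* plus *MCL1*, gave 0.278 in NC 1, 0.391 in NC 2, 0.239 in si-circZFR 1 and 0.274 in si-circZFR 2. Here NC 1 and si-circZFR 2 nearly touched. The log2 difference was -0.37, and it was -0.61 without NC 1 and -0.12 without NC 2. *MCL1* is in every denominator, and *BCL2L1* in that of the effector and BH3-only ratios, so the ratios are not separate observations. How often ratios of other genes lie apart between the groups was not computed. No test was made on the ratios, and for each the exact permutation p could not fall under 0.333.

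**Figure D3:**
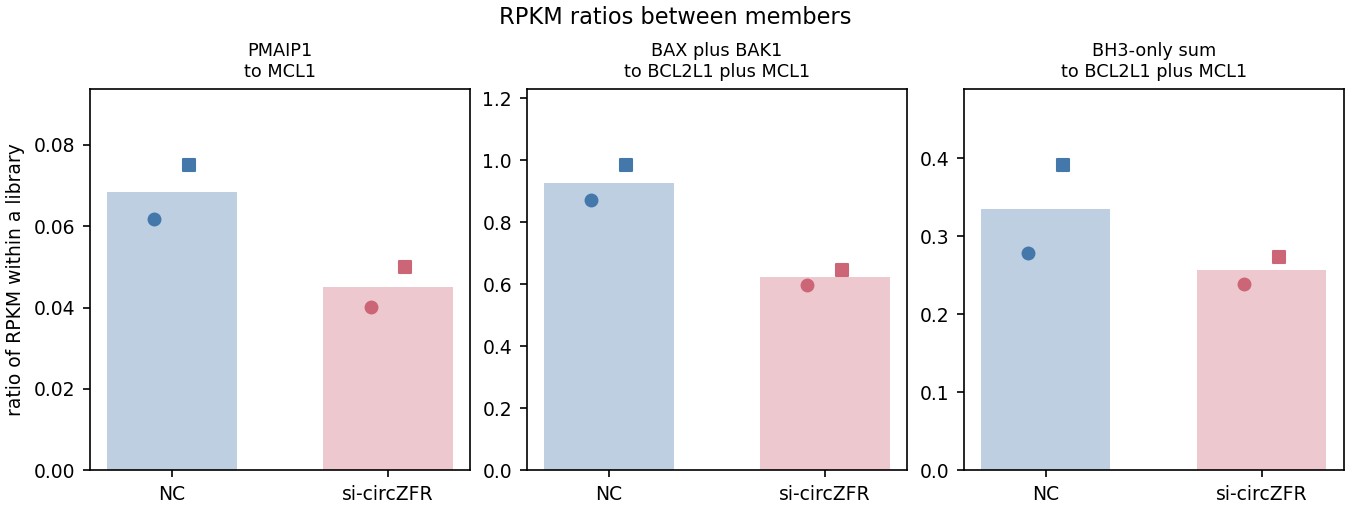
Ratios of RPKM within each library for *PMAIP1* to *MCL1*, for *BAX* plus *BAK1* to *BCL2L1* plus *MCL1*, and for the sum of the 6 BH3-only genes to *BCL2L1* plus *MCL1*. Bars are means of 2 libraries from an axis at 0, circles are replicate 1 and squares replicate 2. The effector ratio lies at 0.872 and 0.984 in NC and at 0.598 and 0.646 in si-circZFR.

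Promoter windows of 300 bases around a start site were read from RefSeq (GRCh38.p14) for 8 of the members, 14 windows in all. Windows for *MCL1* and *BIK* were not used here. For each role, 1 window is shown of a member whose groups were apart, and the windows and the motifs searched were chosen after sequences and values had been seen. Capitals mark the motifs on either strand: the E-box CACGTG, the GC box GGGCGG, the TATA box TATAAA, the AP-1 site TGANTCA, the CCAAT box and the CRE core TGACG.
BCL2L1, chr20:31722819-31723118, minus strand: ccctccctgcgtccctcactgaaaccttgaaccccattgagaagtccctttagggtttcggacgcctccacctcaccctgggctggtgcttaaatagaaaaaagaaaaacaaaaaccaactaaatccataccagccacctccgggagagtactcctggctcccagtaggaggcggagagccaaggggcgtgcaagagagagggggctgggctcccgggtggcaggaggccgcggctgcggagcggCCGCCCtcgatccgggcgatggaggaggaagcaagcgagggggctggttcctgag
BAX, chr19:48954625-48954924, plus strand: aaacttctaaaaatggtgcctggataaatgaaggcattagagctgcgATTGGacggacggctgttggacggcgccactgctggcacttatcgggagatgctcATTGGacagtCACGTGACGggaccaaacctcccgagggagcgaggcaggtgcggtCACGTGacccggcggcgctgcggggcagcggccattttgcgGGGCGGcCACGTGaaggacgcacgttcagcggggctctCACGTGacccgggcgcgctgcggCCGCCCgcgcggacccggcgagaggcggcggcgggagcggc
BBC3, chr19:47232618-47232917, minus strand: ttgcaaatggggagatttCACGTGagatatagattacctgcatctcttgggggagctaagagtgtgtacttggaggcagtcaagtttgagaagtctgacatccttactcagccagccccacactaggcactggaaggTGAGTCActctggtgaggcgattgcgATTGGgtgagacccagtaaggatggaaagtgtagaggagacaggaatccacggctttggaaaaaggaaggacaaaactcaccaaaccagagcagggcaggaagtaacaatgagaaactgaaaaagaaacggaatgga
The *BAX* window held 4 copies of the E-box, 1 of which shares bases with the CRE core. The *BBC3* window, which belongs to a start site upstream of the gene span given above, held 1 E-box, 1 AP-1 site and 1 CCAAT box. The *BCL2L1* window held 1 GC box. Over the 14 windows, the E-box was found in 4 (7.26% of all 35116 windows), 2 of them overlapping windows of *BID*, the GC box in 11 (45.0%), the CCAAT box in 6 (34.6%) and the CRE core in 5 (24.6%). The AP-1 site (7.71% of all windows) and the TATA box (11.5%) were each found in 1 window, of *BBC3* and of *BCL2L1*. The window with the TATA box is the other window of *BCL2L1*, which is not shown. Several members have more than 1 window, and these can overlap, so the 14 windows are not independent. A match is a description of letters, and no match says only that the letters are not in this window. *BAX*, with lower values, and *BBC3*, with higher values, both held the E-box.

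Other genes of the pathway are given from 8 lists. Of the 70 listed genes reported here, 64 were tested and none passed, by limma or by limma-voom. Without adjustment, 7 of the 64 genes were higher and 9 lower at p under 0.05 by limma, against 9.51% and 11.8% of all genes, and the median log2FC was -0.05.

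Among the caspases, *CASP6* had a log2FC of 0.53 (FDR = 0.22 by limma), and *CASP9* had -0.08. In the list of other family and BH3-related members, 6 of 9 were tested, none passed, and all 6 had their groups apart, 2 higher and 4 lower, where 55.9% of all genes tested did. *BCL2L12* had a scaled RPKM of 15.2 in NC 1, 16.4 in NC 2, 8.81 in si-circZFR 1 and 10.2 in si-circZFR 2 (log2FC -0.68, FDR = 0.116 by limma). *BCL2L13*, a mitophagy receptor with BH domains, had 7.18, 8.03, 11.0 and 12.5 in the same order (log2FC 0.57, FDR = 0.145 by limma). These were the smallest p-values of that list and lay in opposite directions.

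None of the 9 mitochondrial factors and apoptosome genes passed. *DIABLO*, which encodes the SMAC protein released through effector pores, had a log2FC of -0.61 (FDR = 0.145 by limma), and *VDAC1*, a channel of the outer membrane, had -0.58 (FDR = 0.222). *CYCS* (cytochrome c) was at -0.30 and *APAF1*, the apoptosome scaffold, at 0.23. None of the 5 inhibitors of apoptosis passed, with *BIRC3* at -0.43 and *BIRC2* at -0.20. Of these 5, 2 had a positive log2FC and 3 a negative one. In the death receptor arm none of 10 passed. *TNFRSF10B*, a receptor for TRAIL, had a log2FC of -0.74 (FDR = 0.124 by limma), and *FAS* had -0.59 (FDR = 0.131). These 2 had the smallest p-values and do not stand for the list. Of its 10 genes, 6 had a positive log2FC and 4 a negative one, with a median of 0.13.

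Of 9 tested transcription factors that are known to act on the members, none passed. *STAT3*, which can act on *BCL2L1* and *MCL1*, had a scaled RPKM of 35.3 in NC 1, 34.9 in NC 2, 56.2 in si-circZFR 1 and 55.3 in si-circZFR 2 (log2FC 0.65, FDR = 0.118 by limma). *JUN*, a part of AP-1, had a log2FC of 0.60 (FDR = 0.156). Most of the list went the other way. Of the 9, 3 had a positive log2FC and 6 a negative one, with a median of -0.23. Among the 21 modifiers and partners of member proteins none passed. *AKT1*, a kinase that can phosphorylate the *BAD* protein, had a log2FC of 0.53 (FDR = 0.16 by limma), and *PIM2*, another *BAD* kinase, had -0.49 (FDR = 0.162).

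**Figure D4:**
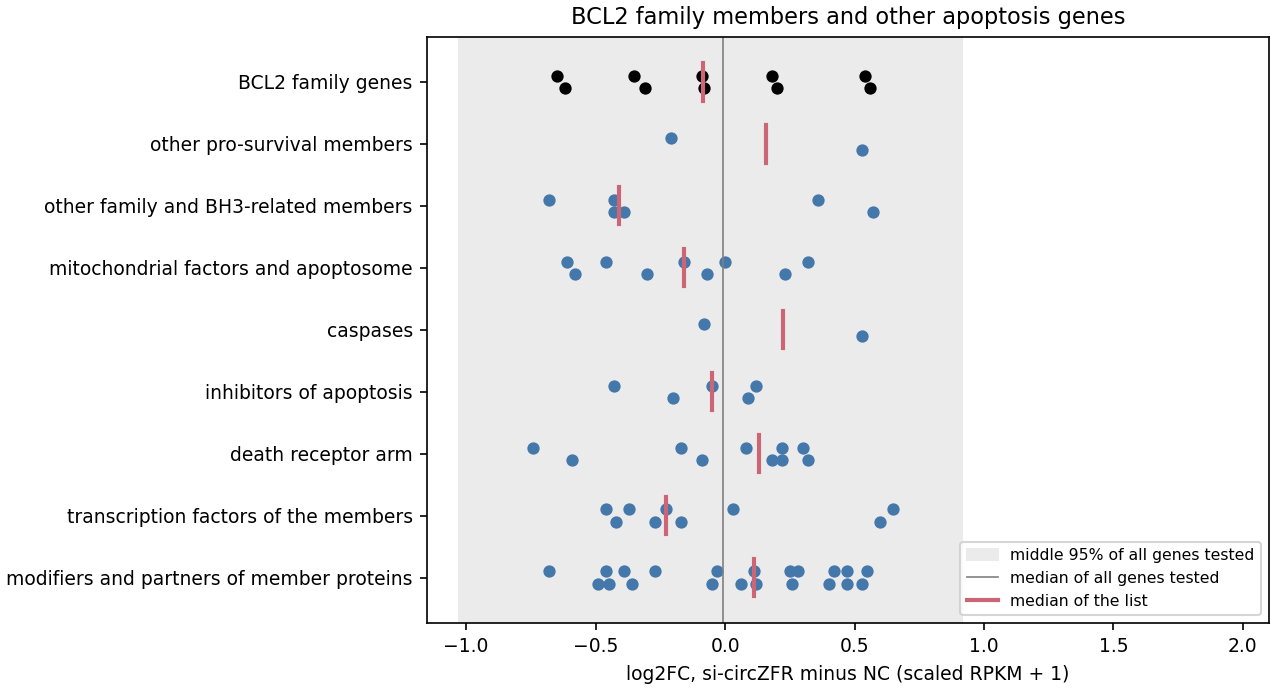
log2FC (si-circZFR minus NC, scaled RPKM + 1) of the 10 members (black) and of the 64 other apoptosis genes reported (blue) by list. Red lines are list medians, the grey line is the median of all 13885 genes tested, and the shaded band holds the middle 95% of them, from -1.03 to 0.92. All members and all 64 other genes shown lie inside the band.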

How the data were processed

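RNA-seq values of 2 NC and 2 si-circZFR libraries were analysed. Libraries were run on an Ion Proton, and the authors deposited RPKM values per gene, without a stated counting strand or multi-mapping rule. The article gives hg38 and the submitters' processing notes GRCh37. Coordinates, 3′UTRs and GC content here came from GENCODE v44 on GRCh38 and promoters from RefSeq, not from the files.

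RPKM values were divided by trimmed-mean factors (30% of log ratios and 5% of levels trimmed), from 0.886 to 1.11. Limma with a trended prior variance was run on log2(scaled RPKM + 1). A gene passed at FDR under 0.05 and |log2FC| over 1. Whole reads (tolerance 0.001) were recovered for 24282 of 24289 genes above 0 (99.97%) by searching for each gene's length, used for depth and for limma-voom. Library totals were derived from small RNA values of known length. Of these values, 77.9% to 81.6% were whole per library at a wider tolerance, which is no separate check.

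The members and lists were chosen with earlier results of these data known. Named were all members, each list's passing genes and its 2 smallest p-values, *ZFR* and the cell type markers, and a few other list genes (*CYCS*, *APAF1* and the low *BCL2* and *BCL2L10*) were named after their values were seen. Some of the listed genes and 1 motif searched are not reported here, and counts over the lists leave these genes out. Alternatives covered scaling, filter, pseudocount, trend, replicate block, length and GC correction (GC known for 86.6% of genes tested), limma-voom and leaving out each library. Software was R 4.3.3 with limma 3.58.1 and mgcv 1.9.3, and Python 3.11.15 with matplotlib 3.10.9, scipy 1.17.1, pandas 2.3.3 and numpy 2.4.6.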

Additional observations from a re-analysis of the deposited data

How the results depend on the processing

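No member passed under any of 14 alternatives. Of 140 log2FC values of members under these, 136 had the sign of the value reported. *BID* turned to 0.10 and *BCL2L11* to 0.04 with library size alone, and *BID* to 0.27 without NC 2 and 0.04 without si-circZFR 1. Leaving out a library moved *BID* from -0.43 to 0.27. *BBC3* ranged from 0.21 to 0.73, *BAD* from -0.92 to -0.37 and *BIK* from 0.12 to 0.97. With library size alone, only *BBC3* of the members had p under 0.05 by limma, as did 3099 of 13885 genes. With the length and GC correction these members were *BAK1*, *BAD* and *BIK*, beside 3047 of 13885 genes. The ratio of *BAX* plus *BAK1* to *BCL2L1* plus *MCL1* moved from -0.58 to -0.40 (log2) with that correction. With all 4 libraries the count of members with groups apart was 7 to 9, against 55.9% of all genes in the values reported. That share was not computed for the other settings, so these counts cannot be set against it. Genes passing among all tested numbered 8 in the values reported, 0 without a filter or without the trend, 2 with a pseudocount of 0.1, 146 with the filter of 1 CPM, 295 by limma-voom, 18 with the length and GC correction and 0 to 1020 when a library was left out. Without NC 2 it was 0 and without NC 1 it was 1020. At an unadjusted p under 0.05, limma gave 3639 genes without a filter, 2969 without the trend and 2566 without NC 2. Of the other apoptosis genes reported, 0 passed under any of these, with 16 at an unadjusted p under 0.05 in the limma values reported. The replicate block gave 17 genes and, with the length and GC correction, 283. Alone, the block added *BIK* to the members with p under 0.05 by limma, beside 3071 of 13885 genes. Same-numbered libraries deviated together with r = 0.0696 across genes, and with 2 pairs and no label of a shared culture or day the numbers were not taken to pair the libraries, which does not show that they are unpaired. Leaving out 1 library leaves an arm with a lone library, assumed to vary like the other group. The cause of these changes was not tested. Depth limits *BIK*, at 13 to 46 reads per library.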
